A study of Mus musculus with 6 samples.

Results

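Transcripts of 10 genes that mark the endothelium of the lung were followed on arrays of whole lung RNA from mice on 2 diets. They are Pecam1, Emcn, Cdh5, Tek, Tie1, Vwf and Cldn5, which mark endothelial cells broadly, Car4 and Ednrb, which mark a class of alveolar capillary cell, and Esm1, which marks endothelial cells at growing vessel tips. A probe set was a member if the platform annotation gave it a single gene symbol and that symbol was one of these. This rule found 10 of the 18194 genes that the annotation names in this way, and 14 probe sets of 45101, with 3 for Ednrb, 2 each for Cdh5 and Car4, and 1 for each of the other genes. All 14 passed the filter on dim probe sets, a mean signal of at least 70.3 over the 6 arrays, so none was left untested.

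The lungs came from wild type animals of 2 groups, 3 fed a high fat diet and 3 fed a control diet, with 1 array per mouse. Log2 signals correlated at 0.908 to 0.915 between arrays of high fat mice, 0.909 to 0.915 between those of control mice and 0.892 to 0.905 across the groups. The sources used here give no diet composition, feeding time, age, sex or strain. In whole lung RNA, fewer cells of a type and less RNA per cell cannot be told apart.

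Endothelial cells line every blood vessel, and the lung holds an unusually dense bed of them around the air spaces. They are held together by the cadherin VE-cadherin (Cdh5), the adhesion molecule PECAM-1 (Pecam1) and the tight junction protein claudin 5 (Cldn5). They sense angiopoietins through the receptor Tie2 (Tek), whose partner is Tie1, and they store von Willebrand factor (Vwf) for clotting. In the mouse lung, the capillary cells marked by Car4 and Ednrb are large, thin cells specialised for gas exchange, and the other capillary cells can divide and repair the bed.

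For the promoters of these genes, RefSeq (build GRCm38.p6) gave 300 bases for 7 of the 10 genes, from 250 bases before to 50 bases after a start. Pecam1, Cdh5 and Vwf were not matched. The sequences of Emcn and Esm1 are shown because their probe sets were lower in high fat mice, and that of Tie1 because it stands for a gene that was not called and its window holds the most copies of the motif counted. Capitals mark GGAA on either strand, the core that ETS factors bind, and ETS factors such as ERG are known regulators of endothelial genes. They lie at chr3:137340828-137341127 (plus strand), chr13:113209409-113209708 (plus strand) and chr4:118489800-118490099 (minus strand).
Emcn promoter: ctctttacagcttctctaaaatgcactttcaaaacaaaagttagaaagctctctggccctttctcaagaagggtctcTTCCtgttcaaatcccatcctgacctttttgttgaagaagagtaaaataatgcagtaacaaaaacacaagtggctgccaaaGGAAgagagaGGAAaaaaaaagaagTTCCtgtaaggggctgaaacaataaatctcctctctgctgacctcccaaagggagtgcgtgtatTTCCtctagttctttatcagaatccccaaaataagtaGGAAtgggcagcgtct
Esm1 promoter: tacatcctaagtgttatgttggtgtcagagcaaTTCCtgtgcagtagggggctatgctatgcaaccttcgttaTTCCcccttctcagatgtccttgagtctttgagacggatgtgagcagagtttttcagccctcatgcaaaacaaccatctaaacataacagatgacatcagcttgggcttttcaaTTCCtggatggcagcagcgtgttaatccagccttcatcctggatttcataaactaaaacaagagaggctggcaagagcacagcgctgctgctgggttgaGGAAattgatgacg
Tie1 promoter: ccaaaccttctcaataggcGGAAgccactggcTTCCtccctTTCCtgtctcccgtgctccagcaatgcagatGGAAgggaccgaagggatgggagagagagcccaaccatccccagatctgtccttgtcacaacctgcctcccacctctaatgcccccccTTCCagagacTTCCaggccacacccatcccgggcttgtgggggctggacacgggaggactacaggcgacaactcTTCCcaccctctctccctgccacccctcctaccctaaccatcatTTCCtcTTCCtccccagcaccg
The ETS core occurred 6 times in the Emcn window, 4 times in that of Esm1 and 9 times in that of Tie1. Of all 32851 promoters of this length, 96.0 percent held it at least once, 15.7 percent held at least 6, 46.3 percent at least 4 and 1.59 percent at least 9. The windows of Car4, Ednrb, Tek and Cldn5 held 4, 3, 2 and 0. The longer form AGGAAG, which contains the core, occurred 2 times in Emcn and 2 times in Tie1 and in none of the other 5, and 35.4 percent of all promoters held it. ACAAT (31.0 percent of all promoters), a SOX core, occurred in Emcn and Tek, AGATAA (11.2 percent), a GATA form, in Tek, and TATAAA (13.6 percent) in Car4. All motifs were searched on both strands, and a match describes the letters and not a bound site.

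Of the 14 endothelial probe sets 4 fell under the high fat diet and 0 rose. Those that fell were the probe sets of Esm1, Emcn and Pecam1 and the dimmer of the 2 of Cdh5. The other 10 were not called, among them both of Car4, all 3 of Ednrb and those of Tek, Tie1, Cldn5 and Vwf. A call is a limma adjusted p under 0.05, with Benjamini-Hochberg adjustment over all 27022 tested probe sets. The 4 called are 28.6 percent of the 14, and of all tested probe sets 8.27 percent were called lower and 4.63 percent higher. The same 4 were the ones in which every high fat mouse lay below every control mouse, where 21.7 percent of all tested probe sets lay below and 14.6 percent above in this way. The median log2 difference, high fat minus control, was -0.36 over the 14, of which 12 were below 0, and -0.06 over all tested probe sets. With only the brightest probe set of each gene counted, 3 of 10 genes fell (Esm1, Emcn and Pecam1), 0 rose and 7 were not called, where 2.2 percent of 12689 genes fell and 4.56 percent rose.

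**Figure D1:**
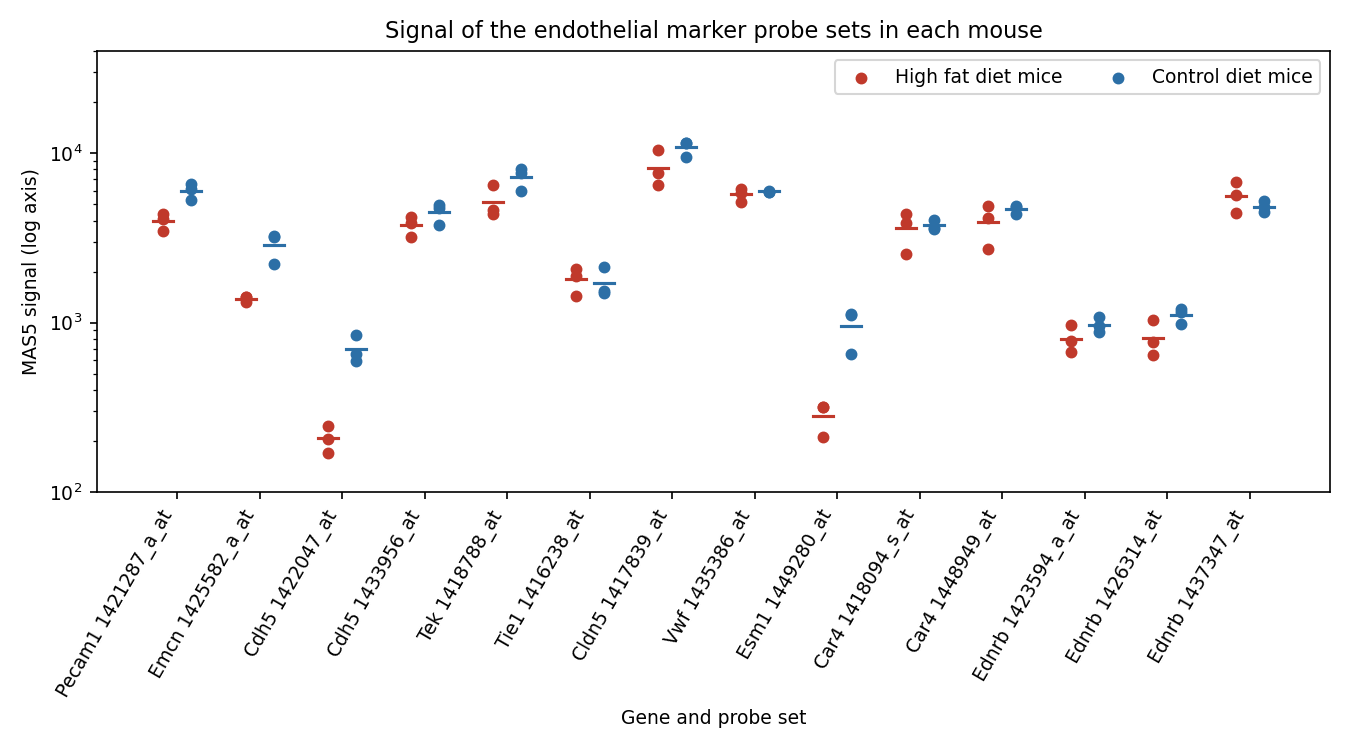
MAS5 signal (log axis) of the 14 endothelial probe sets, with 1 point per mouse and a bar at the mean of each group, high fat mice to the left of control mice. The groups do not overlap for Pecam1, Emcn, Esm1 and Cdh5 1422047_at, and overlap for the other 10.

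Emcn encodes endomucin, a sialomucin on the surface of capillary and venous endothelium. Its probe set 1425582_a_at had signals of 1423, 1324 and 1418 in high fat mice, against 2203, 3246 and 3185 in control mice. The 3 high fat mice lay within a narrow range and all below the lowest control mouse. The mean was 1388 ± 55.6 in high fat mice and 2878 ± 585 in control mice (SD, n = 3 each). Every fold here comes from the difference of mean log2 signals. For Emcn the level was 0.490 times the control level, with a 95% interval of 0.381 to 0.629 (log2 -1.03 ± 0.16 SE, limma adjusted p = 0.00798). Emcn stayed called in all 16 alternatives tried at the probe set level, and its log2 difference ran from -1.23 to -0.76. With p-values adjusted over genes it was called in 14 of 17, with a highest adjusted p of 0.0572 and no call without control replicate 2, control replicate 3 or the trend of variance with intensity.

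Esm1 encodes endocan, a proteoglycan secreted by activated endothelium. Its probe set 1449280_at had signals of 212, 319 and 321 in high fat mice, against 1118, 1104 and 658 in control mice. Control replicate 3 was the lowest control mouse and still lay above every high fat mouse. The mean was 284 ± 62.0 in high fat mice and 960 ± 262 in control mice (SD, n = 3 each). From the mean log2 signals, the level was 0.299 times the control level (95% interval 0.201 to 0.444, limma adjusted p = 0.00667). Esm1 also stayed called in all 16 alternatives, with log2 differences of -1.99 to -1.41.

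Pecam1 encodes the adhesion molecule CD31, found at endothelial cell contacts and also on platelets and leukocytes. Its probe set 1421287_a_at had signals of 3461, 4089 and 4340 in high fat mice, against 5315, 6098 and 6573 in control mice, with no overlap. The fall was to 0.661 times the control level (95% interval 0.537 to 0.813, limma adjusted p = 0.0240). The call of Pecam1 rested on most mice: it was lost without control replicate 2, control replicate 3, high fat replicate 1 or high fat replicate 2, with limma adjusted p up to 0.0974. It was also lost with arrays centred on their median (log2 -0.32, limma adjusted p = 0.139) and without an intensity trend in the variance. The sign was negative in all 16 alternatives.

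Cdh5 gave different results with its 2 probe sets. The dimmer, 1422047_at, had signals of 206, 172 and 246 in high fat mice, against 656, 597 and 846 in control mice. It fell to 0.297 times the control level (95% interval 0.216 to 0.409, limma adjusted p = 0.00365) and stayed called in all 16 alternatives. The brighter, 1433956_at, had signals of 3177, 3860 and 4181 in high fat mice, against 3784, 4910 and 4738 in control mice, which overlap. Its level was 0.835 times the control level (95% interval 0.662 to 1.05, limma adjusted p = 0.266), and its log2 difference was 0.015 with arrays centred on their median. A statement on Cdh5 as a gene therefore depends on the probe set: the brighter one, which represents it above, was not called, and the mean of both was (log2 -1.0, limma adjusted p = 0.0159).

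Within an array, the ratio of 2 probe sets of the same gene is free of the scaling of that array. The log2 ratio of the dimmer over the brighter Cdh5 probe set was -3.94, -4.49 and -4.09 in high fat mice, against -2.53, -3.04 and -2.49 in control mice, a difference of -1.49. Ednrb showed a smaller gap of the same sign: the ratio of 1426314_at over the brightest, 1437347_at, was -2.77, -2.88 and -2.69 in high fat mice, against -2.19, -2.05 and -2.10 in control mice. For 1423594_a_at over 1437347_at it was also lower in every high fat mouse than in every control mouse, by 0.49 on the log2 scale between the means. For Car4, the ratio of 1418094_s_at over 1448949_at ran the other way, averaging -0.12 in high fat mice and -0.32 in control mice. These pairs were examined after the values were seen. Of 5 pairs, 4 did not overlap between the groups, each with a two-sided exact permutation p = 0.1 (0.125 adjusted over the 5), the smallest that 3 mice against 3 can give. The share of same-gene pairs over the whole array that separate in this way was not computed. The Ednrb pairs share probe sets, so the 5 are not independent.

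**Figure D2:**
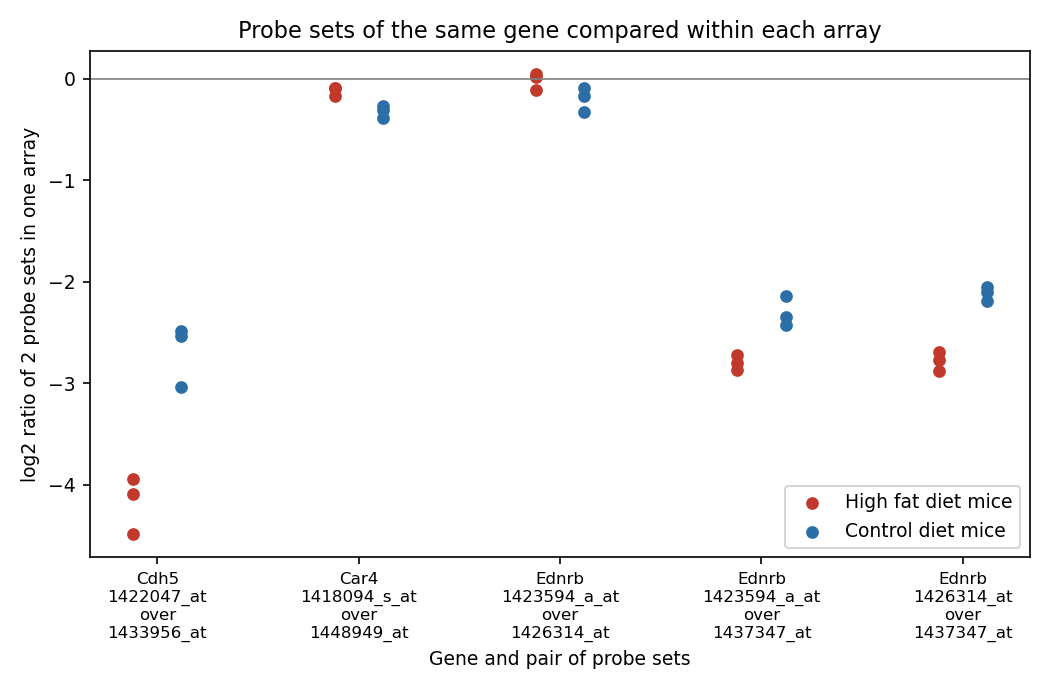
Log2 ratio of 2 probe sets of the same gene within each array, dimmer over brighter, with 1 point per mouse, high fat to the left of control. The Cdh5 ratio lies between -4.49 and -3.94 in high fat mice and between -3.04 and -2.49 in control mice.

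RNA quality measures also differed between the groups. For control transcripts probed at both ends, the 3'/5' ratio was 0.915 ± 0.054 in high fat mice and 0.768 ± 0.026 in control mice for Gapdh, and 1.52 ± 0.02 in high fat mice and 1.31 ± 0.12 in control mice for b-Actin (SD, n = 3 each). Neither ratio overlapped (two-sided exact permutation p = 0.1 each, the smallest possible). The positions of the Cdh5, Ednrb and Car4 probe sets along their transcripts were not used here, and the part of RNA quality in these differences was not tested.

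The angiopoietin receptor Tek and its partner Tie1 did not pass the test. Tek had signals of 4344, 4607 and 6472 in high fat mice, against 5968, 8054 and 7600 in control mice. High fat replicate 3 lay above the lowest control mouse, and the level was 0.708 times that of control mice (95% interval 0.534 to 0.938, limma adjusted p = 0.10). Tie1 had signals of 1428, 1889 and 2079 in high fat mice, against 1493, 1534 and 2116 in control mice. The groups of Tie1 overlapped almost fully, at 1.05 times the control level with an interval of 0.787 to 1.40 (limma adjusted p = 0.829). The sign of Tie1 was negative in 3 of the 6 fits with 1 mouse left out.

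Cldn5 and Vwf were not called either. Cldn5 had signals of 6500, 7635 and 10413 in high fat mice, against 9438, 11436 and 11469 in control mice, at 0.747 times the control level (95% interval 0.563 to 0.992, limma adjusted p = 0.151). As for Tek, high fat replicate 3 was the mouse that overlapped with the control mice. Vwf had signals of 6119, 5174 and 5827 in high fat mice, against 5976, 5927 and 5883 in control mice, which is 0.960 times the control level with an interval of 0.808 to 1.14 (limma adjusted p = 0.755). The control mice were within a narrow range for Vwf, and the lower bound of the interval lies above the folds of Emcn, Esm1 and Pecam1.

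The 2 markers of gas-exchange capillary cells were not called with any probe set. Car4, a membrane-bound carbonic anhydrase that helps carbon dioxide leave the blood, had signals of 2707, 4148 and 4887 in high fat mice, against 4774, 4868 and 4391 in control mice, with its brighter probe set. High fat replicate 1 was low and the other two lay near the control mice, and the fold was 0.813 (95% interval 0.595 to 1.11, limma adjusted p = 0.340). The dimmer Car4 probe set was at 0.937 times the control level (0.696 to 1.26), and its log2 difference was 0.14 without high fat replicate 1 and 0.18 with arrays centred on their median. Ednrb, the endothelin B receptor, had signals of 4416, 5666 and 6706 in high fat mice, against 4490, 4773 and 5179 in control mice, with its brightest probe set (fold 1.15, 95% interval 0.895 to 1.47, limma adjusted p = 0.425). Its dimmer probe sets were at 0.722 times (0.540 to 0.965, limma adjusted p = 0.124) and 0.818 times (0.632 to 1.06, limma adjusted p = 0.261) the control level.

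**Figure D3:**
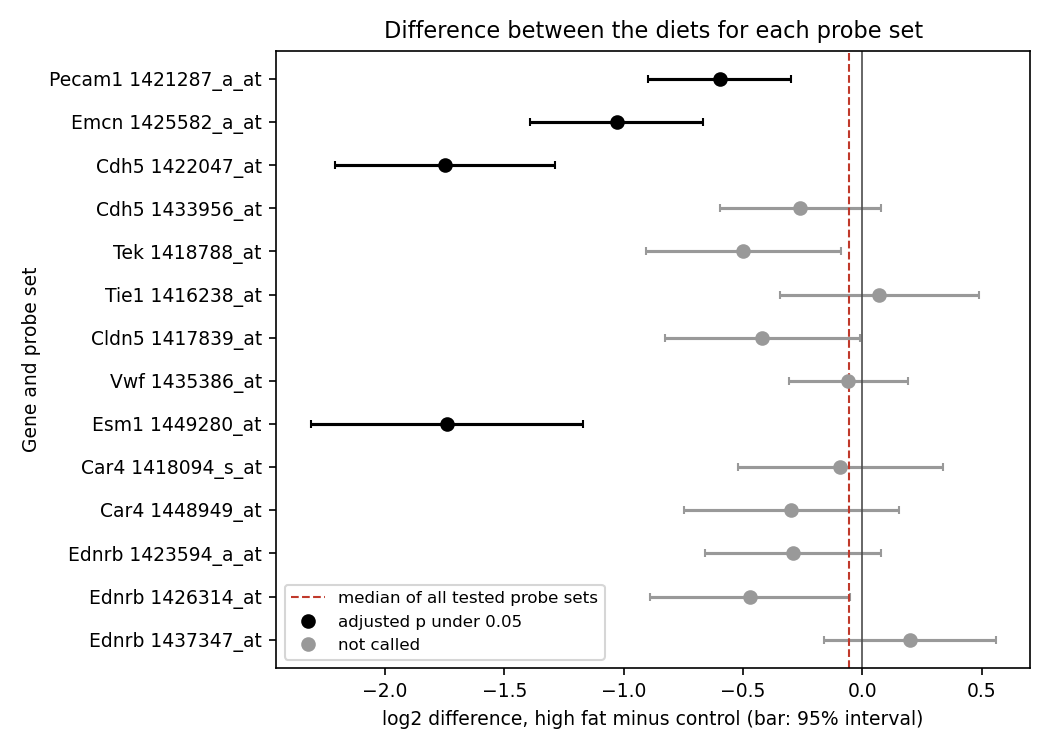
Log2 difference between the diets (high fat minus control) of each endothelial probe set with its 95% interval, where black marks an adjusted p under 0.05 and the dashed line the median of all tested probe sets. Esm1 (-1.74), Cdh5 1422047_at (-1.75), Emcn (-1.03) and Pecam1 (-0.60) are called, and the others lie between -0.50 and 0.20.

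The mice within a group were not alike over these genes. High fat replicate 1 gave the lowest signal of all 6 mice for 11 of the 14 probe sets and high fat replicate 2 for the other 3, and no control mouse was lowest for any. The highest signal belonged to a control mouse for 10 probe sets, to high fat replicate 3 for 3 and to high fat replicate 1 for Vwf. How often each mouse was lowest or highest over all tested probe sets was not counted. Averaged over the brightest probe sets of the 10 genes, the log2 signal relative to the control mean was -0.70, -0.45 and -0.25 in high fat mice, against -0.12, 0.08 and 0.04 in control mice. Without high fat replicate 3, 7 probe sets were called lower, the 4 above with Tek, Cldn5 and Ednrb 1426314_at, beside 8.46 percent of all tested probe sets. With any other mouse left out 3 or 4 were called, and Emcn, Esm1 and Cdh5 1422047_at were among them each time. In those fits 1.46 to 5.25 percent of all tested probe sets were called lower. Without replicate 1 of both groups, the 4 probe sets of the full comparison were called, beside 2.96 percent of all called lower.

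The differences were unequal in size within the same arrays. Relative to the mean of the other 9 genes in the same mouse, with the control mean set to 0, Esm1 was at -1.60, -1.22 and -1.44 in high fat mice, against 0.42, 0.18 and -0.61 in control mice. Emcn was at -0.33, -0.72 and -0.84 in high fat mice, against -0.27, 0.13 and 0.14 in control mice. Ednrb, by its brightest probe set, was at 0.64, 0.76 and 0.81 in high fat mice, against 0.02, -0.10 and 0.07 in control mice. Tie1 was at 0.50, 0.68 and 0.60 in high fat mice, against -0.07, -0.24 and 0.31 in control mice. These log2 values do not depend on how the arrays were scaled. They were negative in every high fat mouse for Esm1, Emcn and Pecam1, and positive for Ednrb, Tie1, Vwf and Cdh5. Tek, Cldn5 and Car4 varied in sign. Emcn and Pecam1 in high fat replicate 1 lay near control replicate 1. For each gene but Esm1 and Emcn, the mean of the other 9 holds both of these, and their falls raise its value.

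Of a wider list of 25 pan-endothelial genes, 4 fell, 0 rose and 21 were not called. Over all 12689 genes, 2.2 percent fell and 4.56 percent rose. The median log2 difference of the list was -0.21, against 0.06 over all genes. With arrays centred on their median it was 0.065, and 2 genes were then called lower and 3 higher. That centring called 3208 of all 12689 genes, in either direction. Without high fat replicate 1 the median was -0.0059. On the deposited scale 18 of the 25 lay below 0. The highest were Cd34 and Nos3, both at 1.46 times and not called (limma adjusted p = 0.0812 and 0.165). The genes that fell were S1pr1, Lmo2, Adgrl4 and Mmrn2. Without an intensity trend in the variance none of the 4 was called.

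S1pr1, the sphingosine-1-phosphate receptor that steadies endothelial junctions and also directs lymphocyte traffic, had signals of 1551, 1405 and 1149 in high fat mice, against 3042, 2393 and 3933 in control mice (0.444 times, limma adjusted p = 0.0133). Lmo2, a transcription cofactor of endothelial and blood cells, had 1355, 1175 and 1459 in high fat mice, against 2291, 3073 and 2266 in control mice (0.526 times, limma adjusted p = 0.0135). Both stayed called with any 1 mouse left out. Adgrl4, an adhesion receptor of endothelium, fell to 0.595 times (limma adjusted p = 0.0223), with its other tested probe set at -0.78 on the log2 scale, and was called in 3 of 6 fits with 1 mouse left out. Mmrn2, an endothelial matrix protein, fell to 0.705 times (limma adjusted p = 0.0484). Its other 3 probe sets lay between -0.07 and 0.19, and it was called in no fit with 1 mouse left out.

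On the deposited scale, markers of vessel types gave 1 call, where 2.2 percent of all 12689 genes fell and 4.56 percent rose. Of 9 tested genes of the capillary list 0 were called, and the lowest p was that of Plvap, a protein of capillary fenestrae and caveolae (0.713 times, limma adjusted p = 0.0662), which was called lower after quantile normalization (limma adjusted p = 0.0383). Of 7 arterial genes 0 were called, with Dll4, a Notch ligand of arteries and tip cells, at 0.706 times by its brightest probe set (limma adjusted p = 0.0842). The other Dll4 probe set was called lower (log2 -0.79), as was the mean of both (log2 -0.64, limma adjusted p = 0.0282). Of 4 lymphatic genes 0 were called, with the hyaluronan receptor Lyve1 at 0.652 times (limma adjusted p = 0.0925). Of 6 venous genes 1 rose: Nr2f2, the transcription factor COUP-TFII, which specifies veins and is also found in stromal cells. Its brightest probe set had signals of 2757, 3109 and 2952 in high fat mice, against 1616, 2005 and 1700 in control mice (1.66-fold, limma adjusted p = 0.0139). The other 4 tested probe sets of Nr2f2 ran from -0.96 to 0.77 on the log2 scale, and the mean of all its probe sets was not called (limma adjusted p = 0.806). The call of the brightest was lost without control replicate 3 (limma adjusted p = 0.0663). With arrays centred on their median, 2 venous and 1 capillary gene were called higher. That setting called 3208 of all 12689 genes, in either direction. The median log2 difference was -0.30 for the capillary list, -0.023 with that centring and -0.18 without high fat replicate 1. It was -0.39 for the arterial list, -0.12 centred and -0.25 without high fat replicate 2. For the venous list it was 0.26, 0.53 centred, 0.17 without control replicate 2, 0.089 without high fat replicate 3, 0.46 without replicate 1 of both groups and 0.059 with means of probe sets. For the 4 lymphatic genes it was -0.04, and it ran from -0.31 to 0.23 over the alternatives.

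Markers of blood cells were also measured in these lungs. Of 7 leukocyte genes 2 fell (Itgal and Coro1a), where 2.2 percent of all 12689 genes fell. The summed signal of the 7 was 15776 to 22201 in high fat mice and 24596 to 28153 in control mice. Ptprc, the common leukocyte antigen, was at 0.583 times (limma adjusted p = 0.0535). Cd52 was at 1.09 times and Laptm5 at 0.886 times, both overlapping between the groups and not called. The median log2 difference of the 7 was -0.63, against -0.36 over the 10 endothelial genes. Pecam1, S1pr1 and Lmo2 are also expressed by blood cells, and the part of blood cells in the endothelial differences was not tested. Of 8 platelet genes 0 were called, at summed signals of 2833 to 5040 in high fat mice and 3350 to 5758 in control mice, with the lowest p for Pf4 (1.88-fold, limma adjusted p = 0.0620) and with Ppbp at 0.592 times (limma adjusted p = 0.256). Pf4 was called higher with arrays centred on their median (log2 1.18, limma adjusted p = 0.0167) and without high fat replicate 3 (log2 1.19, limma adjusted p = 0.0219). With that centring 1 leukocyte gene was called higher, and 3208 of all 12689 genes were called in either direction. Every tested marker on these lists had passed the filter of a mean signal of at least 70.3, so none could be at 0 on average.

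Of 12 pericyte and smooth muscle genes 4 rose (Myl9, Tagln, Cnn1 and Notch3) and 8 were not called, where 4.56 percent of all 12689 genes rose. Of the 12, 2 lay below 0 on the log2 scale, Higd1b (0.924 times) and Kcnj8 (0.901 times). Rgs5 and Des, at 2.2 and 1.9 times, overlapped between the groups. The summed signals of the 12 were 39689 to 66713 in high fat mice and 25928 to 30416 in control mice. Acta2 alone gave 12539 to 22418 of this in high fat mice and 9247 to 10337 in control mice. Of 8 adipocyte genes, Plin1, Cfd and Adrb3 had no probe set that the annotation gave to them alone, and Lep did not pass the filter. The other 4 rose, Plin4, Cidec, Retn and Adipoq (9.71-fold, limma adjusted p = 0.00795). Their summed signals were 7107 to 12244 in high fat mice and 849 to 2107 in control mice. Of 4 mesothelial genes 3, Upk3b, Wt1 and Lrrn4, rose (5416 to 10727 in high fat mice and 2769 to 3055 in control mice), and Msln was not called (2.05-fold, limma adjusted p = 0.0912). Of 8 cardiac muscle genes 1 rose, Myl7, at sums of 44338 to 162647 in high fat mice and 20865 to 47523 in control mice. High fat replicate 1, the lowest mouse for most endothelial probe sets, had the highest adipocyte, cardiac and smooth muscle scores. The other 2 high fat mice did not keep this order. Replicate 2 was below replicate 3 in the endothelial (-0.45 and -0.25), cardiac (0.11 and 0.96) and smooth muscle scores (0.47 and 0.67). Their adipocyte scores were 2.20 and 2.16, and replicate 2 had the highest mesothelial score (1.80). With arrays centred on their median, 9 of the 12 pericyte and smooth muscle genes and 3 of the 8 cardiac genes were called higher. Of all 12689 genes 3208 were then called, in either direction. With genes as means of their probe sets, 1 of the 12 was called higher. The part of these cell types in the endothelial differences was not tested.

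Among markers of the alveolar epithelium and of fibroblasts, 2 were called on the deposited scale. On this scale 2.2 percent of all 12689 genes fell and 4.56 percent rose. Of 7 type I cell genes 1 fell (Akap5, 0.567 times, limma adjusted p = 0.0132) and Ager was at 1.21 times (limma adjusted p = 0.274). Of 7 type II cell genes 0 were called, with the lowest p for Abca3 (1.27-fold, limma adjusted p = 0.140) and with the surfactant protein gene Sftpc at 1.08 times (limma adjusted p = 0.818). Of 6 fibroblast genes 1 rose, Col1a1 (1.76-fold, limma adjusted p = 0.0282). With arrays centred on their median, 4 type II, 2 type I and 3 fibroblast genes were called higher, Abca3 among them (limma adjusted p = 0.0187). Of all 12689 genes 3208 were called with that centring, in either direction. Without an intensity trend in the variance, the calls of the venous, leukocyte, smooth muscle, cardiac, fibroblast and type I cell lists were lost, and 1 mesothelial gene stayed called. Of all genes named from these other lists as called, S1pr1, Lmo2, Itgal, Plin4 and Adipoq stayed called with any 1 mouse left out, and each of the others lost its call in at least 1 of those fits.

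**Figure D4:**
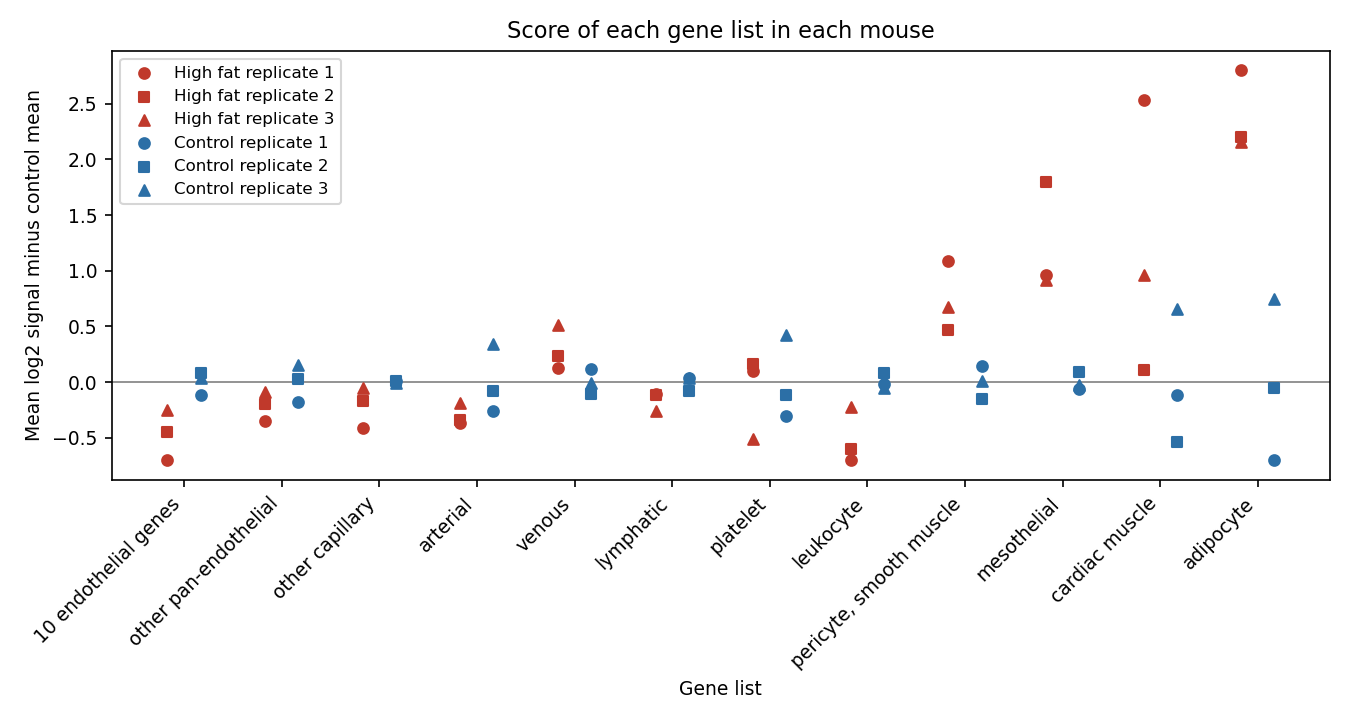
Mean log2 signal of each gene list in each mouse, minus the mean of the control mice, with high fat mice to the left of control mice and symbols for replicates. The 10 endothelial genes lie between -0.70 and -0.25 in high fat mice and between -0.12 and 0.08 in control mice, and the adipocyte list lies between 2.16 and 2.80 in high fat mice and between -0.70 and 0.75 in control mice.

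Signals are relative within each array. Every deposited array had a trimmed mean of 500, and the median signal was 113 to 129 on the high fat arrays and 143 to 150 on the control arrays. Centring the arrays on their medians adds 0.28 to every log2 difference, and the share of called probe sets that were higher was 35.9 percent without it and 80.1 percent with it. On that scale Emcn, Esm1 and Cdh5 1422047_at were still called lower, 3 of 14, beside 4.02 percent of all probe sets.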

How the data were processed

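RNA of whole lungs was measured on Affymetrix Mouse Genome 430 2.0 arrays. Per the submitters' processing notes, MAS5 produced the signals that the authors deposited; its version and settings are not stated there. These deposited signals are a linear intensity, above 0 throughout and with a trimmed mean of 500 on every array. The mismatch probes that MAS5 subtracts add noise to dim probe sets.

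Gene symbols came from the platform annotation: 34958 probe sets carried 1 symbol, 932 several and 9211 none. A floor of 1 was applied before the log2. Of all probe sets, 64 Affymetrix controls were left out, and those with a mean log2 signal below the 40th percentile (6.14) were not tested. The test was limma 3.58.1 (R 4.3.3), a two-sided lmFit and eBayes fit of diet whose prior variance follows intensity (4 residual degrees of freedom). A gene was represented by its brightest tested probe set, with p-values adjusted over 12689 genes. Data for this comparison were simulated with 27022 probe sets, of which 200 were changed. On them the test recovered 66 percent of differences of 2 and 32 percent of differences of 1 on the log2 scale. In the measured data 3486 probe sets were called, so these shares hold for the simulated setting only. All probe sets of the 10 genes are reported, with up to 4 called genes from each other list, the one with the smallest p where none was called, and 8 defining markers. The members and lists were chosen with earlier results of these data known. The number of arrays, 3 a group, limits the precision of every value.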

Additional observations from a re-analysis of the deposited data

How the results depend on the processing

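Each of these was tried in turn: arrays quantile normalized or centred on their medians, an offset of 32, the dim filter dropped or raised to 60 percent, eBayes made robust or fitted without its trend, weighted arrays, a replicate block, genes as means of their probe sets, and mice left out, 1 at a time or replicate 1 of both groups. Over these, 0 member probe sets were called higher, and Emcn, Esm1 and Cdh5 1422047_at were called lower in each fit at the probe set level. With 1 mouse left out, 3 to 7 probe sets and 1 to 3 genes were called lower. There were 7 probe sets without high fat replicate 3, and 1 gene, Esm1, without control replicate 2 or 3. Of all tested probe sets 1.46 to 8.46 percent were called lower in these fits. The median log2 difference of the 14 ran from -0.54 to -0.22. It was -0.085 with arrays centred on their medians. Without the trend, 1 gene, Esm1, was called lower.

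Signs turned for probe sets that were not called, and the cause was not tested. With median centring this held for Cdh5 1433956_at (0.015), Vwf (0.22) and Car4 1418094_s_at (0.18). With 1 mouse left out, Tie1 ran from -0.043 to 0.23, Vwf from -0.11 to 0.010 and Car4 1418094_s_at from -0.25 to 0.14, and Car4 was at 0.12 without replicate 1 of both groups. Ednrb was at -0.19 as the mean of its probe sets.

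Over all features, 3486 probe sets and 857 genes were called. Counts were 5448 and 3208 with median centring, and 724 to 3298 probe sets with 1 mouse left out. Without the trend 136 genes were called, with means of probe sets 515, and without replicate 1 of both groups 1343 probe sets. Same-numbered mice deviated from their group means with correlations of 0.167, 0.108 and -0.041, and 3 of 6 mice correlated best with their own number, so the numbers were not taken to pair the mice. With the replicate block, 4 member probe sets, 3052 probe sets in all and 737 genes were called.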
